A study of Triticum aestivum with 10 samples.

Results

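Watered wheat seeds collected at 48 and at 72 hours after fertilization (HAF) were compared on 4 of the 10 arrays of the series, 2 per time. The arrays were chosen by their titles, which call them controls at 48 HAF and at 72 HAF, and 61179 of the 61290 probe sets were used after 111 control probe sets were left out. All plants were Triticum aestivum, winter wheat cultivar Redland, grown in pots in a growth chamber after vernalization, and the controls were kept under regular watering. The other arrays came from watered seeds at 24 HAF and from seeds of plants whose watering had been stopped, at 48 and 72 HAF, again 2 arrays per group. The labels put the start of the drought at 24 HAF in one place and at 48 HAF in another. Each floret was timed by eye from its anthers, since florets of a spike are not fertilized together. RNA came from developing seeds, which the labels describe both as endosperm and as whole seed. The arrays of a group are called biological replicates, but no plant, pot or number of seeds is given, so a p-value measures only the spread between these samples, and 2 arrays per group limit the precision. In such bulk samples fewer cells of a type and less RNA per cell cannot be told apart.

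In a cereal seed the endosperm first multiplies its nuclei in a shared cytoplasm, then forms cell walls, and only later fills with starch and storage proteins. The storage proteins of wheat are gliadins and glutenins, which make gluten, and they are laid down beside inhibitors of digestive enzymes and antimicrobial thionins. The comparison asks what the young seed's transcripts do across this step when water is not limiting.

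The medians of the 4 arrays lay between 4.09 and 4.14 on the log2 scale. The 48 HAF arrays correlated at 0.986 over all probe sets and differed at least 2-fold in 1447 of them (2.37%), whereas the 72 HAF arrays correlated at 0.969 and differed at least 2-fold in 3942 (6.44%). Replicate 2 of 72 HAF was closer to replicate 1 of the 72 HAF drought group (r = 0.996, 63 probe sets 2-fold apart) than to its own partner, and replicate 1 of 72 HAF lay closest to replicate 2 of 48 HAF (r = 0.982). Control replicate 2 and drought replicate 1 also lay together at 48 HAF (r = 0.993, 234 probe sets 2-fold apart). Replicate 1 of control 48 HAF lay closest to replicate 1 of control 24 HAF (r = 0.996, 164 probe sets 2-fold apart). Each array is used here as it is labelled, and whether any of them carries the label of another sample was not tested. Outside the comparison, 2 arrays stood apart as well. Replicate 2 of 72 HAF drought differed at least 2-fold from its partner in 9981 probe sets (16.3%). Replicate 2 of 24 HAF differed at least 2-fold from replicate 1 in 26805 probe sets (43.8%), and its mean level for the BioB spike-in probe sets was 11.86 against 4.01 to 6.97 on the other 9 arrays. The 24 HAF array entered the variance estimate of the fit, and each count of calls is given with and without it.

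Between 48 and 72 HAF no probe set passed the test. With limma's moderated test on all 10 arrays, 0 of 61179 probe sets reached an adjusted p of 0.05 (0%), 187 had an unadjusted p below 0.05, and the smallest adjusted p was 1. Evenly spread p-values would put 3059 probe sets below 0.05. Without replicate 2 of 24 HAF the count of calls was again 0, with 1056 unadjusted. The spread over all 10 arrays sets a wide margin: the 95% interval of a difference reached 0.92 log2 units to either side at the median probe set. Fitted on the 4 watered arrays alone, it reached 0.58. Each SE and interval given below is from the fit on all 10 arrays, not from the 4 watered ones alone. The 2 groups did not overlap in 20207 probe sets, which is 33% of those tested. With 2 arrays against 2, an exact two-sided permutation test cannot go below p = 0.333. The rest of the account is therefore a description of the 4 arrays, in which an array counts as higher or lower where it lay at least 1 log2 unit, or 2-fold, outside the range of both 48 HAF arrays.

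By this measure the 72 HAF arrays moved separately, with 469 probe sets higher on replicate 1 (0.767% of those tested) and 778 on replicate 2 (1.27%). Of 1694 probe sets that moved on at least 1 array, 1655 (97.7%) did so on only 1 of them, 19 (1.12%) moved the same way on both and 20 moved in opposite directions. On both arrays 13 probe sets were higher (0.0212% of those tested) and 6 lower (0.00981%). On replicate 1 only, 441 were higher (0.721%) and 246 lower (0.402%). On replicate 2 only, 760 were higher (1.24%) and 208 lower (0.34%). The remaining moved probe sets were 15 that were higher on replicate 1 and lower on replicate 2 (0.0245%) and 5 with the opposite pattern (0.00817%). These counts rest on the fold and on both 48 HAF arrays. Against replicate 2 of 48 HAF alone, that is without replicate 1, 55 probe sets were higher and 59 lower on both arrays, and against replicate 1 alone, without replicate 2, 211 were higher and 435 lower. On replicate 1 only, 982 were higher and 629 lower without the first 48 HAF array, and 784 and 1362 without the second. On replicate 2 only, the counts without the second 48 HAF array were 1198 higher and 731 lower. The opposite patterns counted 59 and 125 probe sets without the first 48 HAF array, and 36 and 16 without the second. The limit of 2-fold cut through a dense range: on replicate 1, 159 probe sets lay 1 to 1.1 log2 units above the 48 HAF range and 199 lay 0.9 to 1 above it.

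**Figure D1:**
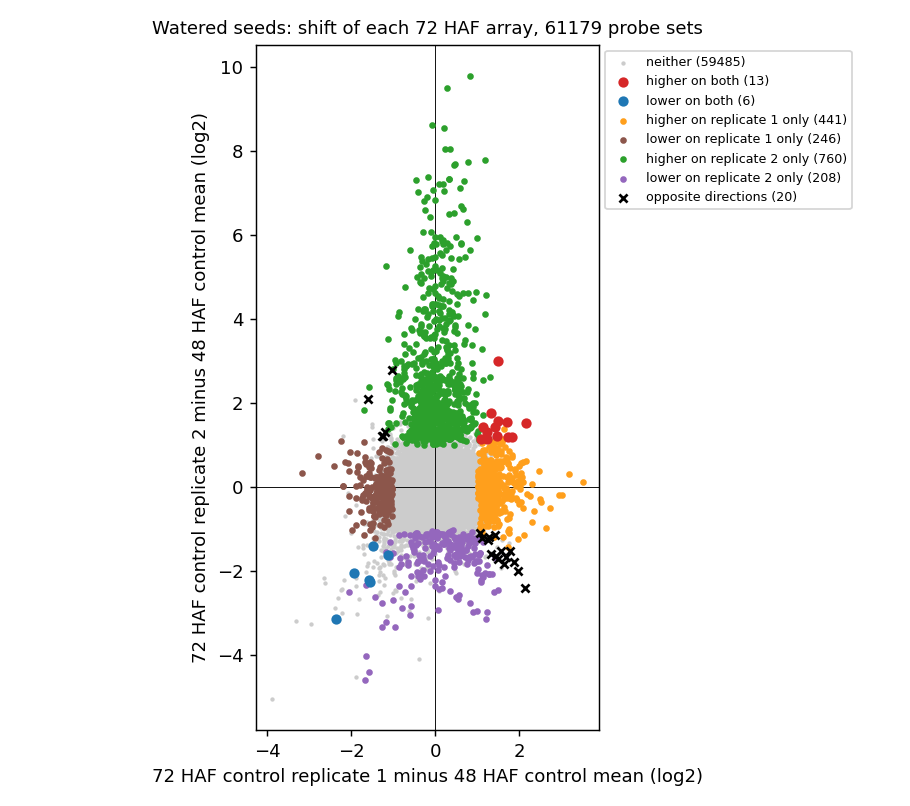
Each point is a probe set, placed by how far replicate 1 (horizontal) and replicate 2 (vertical) of the watered 72 HAF group lay from the mean of the 2 watered 48 HAF arrays, in log2 units, with colour for the class; grey points far from 0 are those whose 48 HAF arrays were themselves far apart. The 760 probe sets that were higher on replicate 2 only stretch far up the vertical axis, and the 13 higher and 6 lower on both arrays are few.

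The shifts of the 2 arrays also differed in size. Among the 760 probe sets higher on replicate 2 only, the median distance above the 48 HAF range was 1.64 log2 units and the largest 9.71, 284 were at least 4-fold higher and 95 at least 16-fold. Among the 441 higher on replicate 1 only, the median was 1.15, the largest 3.37, and 13 were at least 4-fold higher. On the other array, 372 of the 760 stayed inside the 48 HAF range. The 48 HAF arrays already leaned in the same direction. Replicate 2 of 48 HAF was above replicate 1 in 602 of the 760 (79.2%), against 52.1% of all probe sets tested, and in 23 of the 208 that were lower on replicate 2 only (11.1%).

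Gene names were available for 1273 probe sets, which stand for 771 genes, and each gene was read from its brightest probe set. Of these genes 65 moved: 39 were higher on replicate 2 only (5.06%) and 7 lower (0.908%), 15 were higher on replicate 1 only (1.95%) and 2 lower (0.259%), and 2 were lower on replicate 1 and higher on replicate 2. No named gene was 2-fold higher or lower on both arrays. Of the moved genes, 26 have more than 1 probe set, and in 8 of these every probe set fell in the same class. Wheat carries near-identical copies of most genes on its 3 subgenomes, and gliadins, inhibitors and thionins are large families, so a probe set may read several copies and the name of a single member is uncertain.

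Of the 39 named genes higher on replicate 2 only, 13 encode seed storage and defence proteins, and of the 760 probe sets of that class 57 have a gene name. The 4 lists (gliadins, glutenins with avenin-like proteins, grain inhibitors, and thionins with other defence proteins) hold 21 storage and defence genes. Over all 771 genes, 5.06% were higher on replicate 2 only and 1.95% on replicate 1 only. Of the 21 listed genes, 13 were at least 2-fold higher on replicate 2 only and none on replicate 1. The median level of these 13 was 3.60 and 4.63 on the 48 HAF arrays and 4.47 and 8.94 on the 72 HAF arrays. Replicate 1 of 72 HAF thus lay between the 48 HAF arrays, and none of the 13 was further than 1.18 log2 units from its own 48 HAF mean there. The members were counted in the same arrays that define the classes, so the counts describe these libraries and no list was tested.

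Gliadins are the monomeric prolamins of gluten, and 4 of the 5 genes were higher on replicate 2 only. The γ-gliadin gene LOC543214 had levels of 1.59 and 1.71 at 48 HAF and of 1.60 and 8.73 at 72 HAF. Replicate 2 was 130-fold above the higher 48 HAF array, while replicate 1 lay within the 48 HAF range, so the groups overlap. Its other 2 probe sets were 4.36-fold higher on replicate 2 (1.97, 1.83, 2.13 and 4.09) and within the 48 HAF range there (2.34, 2.14, 2.55 and 2.24). The fitted difference of the brightest probe set was 3.51 ± 2.22 (SE of the fit on all 10 arrays, n = 2 arrays per group). Its 95% interval ran from -1.55 to 8.57, with an adjusted p of 1 by limma. The α/β-gliadin gene LOC543210 went from 3.08 and 3.29 to 3.11 and 8.94, 50.2-fold on replicate 2. Its relative LOC543211, at 4.83 and 4.81 before, had 4.61 and 10.13. LOC543212 had 2.14 and 2.27 and then 2.13 and 3.72, and its other probe set did not move 2-fold. The remaining α/β-gliadin gene, LOC543385, stayed within its 48 HAF range on both arrays, at 1.49, 2.14, 1.60 and 1.98. Over the 5 gliadin genes the median of the difference was 2.55 on the log2 scale, but it was -0.08 on replicate 1 and 5.31 on replicate 2, against 0.0015 over all tested probe sets.

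Glutenins, which form the polymers of gluten, are represented by LOC543213, a low molecular weight subunit. Its levels were 5.63 and 5.68 at 48 HAF and 5.69 and 6.97 at 72 HAF, so that replicate 2 was 2.44-fold higher, and its other 2 probe sets were 3.47- and 1.6-fold higher there. The avenin-like gene LOC780582, of a related family of grain proteins, had 3.65 and 4.12 before and 3.95 and 8.43 after. The avenin-like gene LOC100125692 depended on the probe set: the brightest had 9.98, 10.08, 9.50 and 9.84, while its other 3 probe sets were 10.7-, 21.4- and 48.8-fold higher on replicate 2. The median difference of the 3 genes was 0.67, made of 0.03 on replicate 1 and 1.31 on replicate 2.

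Among the 8 grain inhibitors, the α-amylase and protease inhibitors divided from the serpins. The α-amylase/trypsin inhibitor gene LOC543281, whose protein blocks digestive enzymes of insects, had 2.74 and 4.63 at 48 HAF and 4.47 and 11.42 at 72 HAF, 111-fold on replicate 2. LOC543286, of the same family, had 3.92 and 5.58 before and 5.19 and 11.29 after. WMAI-1 (LOC542981), a monomeric α-amylase inhibitor, had 3.60, 4.47, 4.12 and 8.02. The protease inhibitor gene wci (LOC542996) had 5.48, 5.66, 5.83 and 8.87. In these 4 genes replicate 1 stayed within 0.17 log2 units of the 48 HAF range or inside it. The serpin genes Serpin-Z2B, Serpin-Z1C, Serpin-Z2A and WSZ1b, which trap proteases in the mature grain, had levels between 2.24 and 4.13 on the 4 arrays and none moved 2-fold. The list's median difference was 1.00, from 0.14 on replicate 1 and 1.77 on replicate 2.

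Thionins are small antimicrobial peptides of the endosperm, and all 3 genes were higher on replicate 2 only. THI1.1 had levels of 2.53 and 5.47 at 48 HAF and of 5.18 and 11.80 at 72 HAF. Its 48 HAF arrays were 2.94 log2 units apart, and replicate 1 of 72 HAF fell between them. THI1.3 (LOC543413) had 2.58, 2.69, 2.81 and 9.85, which made replicate 2 143-fold higher, and THI1.2 had 4.63, 5.11, 4.76 and 10.94. The fitted difference of THI1.3 was 3.70 ± 1.95 (SE of the fit on all 10 arrays, n = 2 per group), with an adjusted p of 1 by limma. The defence gene PR5 (LOC543292), a thaumatin-like protein, was flat at 2.57, 2.52, 2.57 and 2.17. The lipid transfer protein gene LTP3 (LOC543095) behaved differently from the thionins: it stood at 11.90 and 12.28 at 48 HAF and above both values on both 72 HAF arrays, at 12.47 and 12.70. Its difference of 0.49 ± 0.19 (95% interval 0.07 to 0.92) had the smallest unadjusted p of the 771 genes, 0.028, and an adjusted p of 1 by limma.

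**Figure D2:**
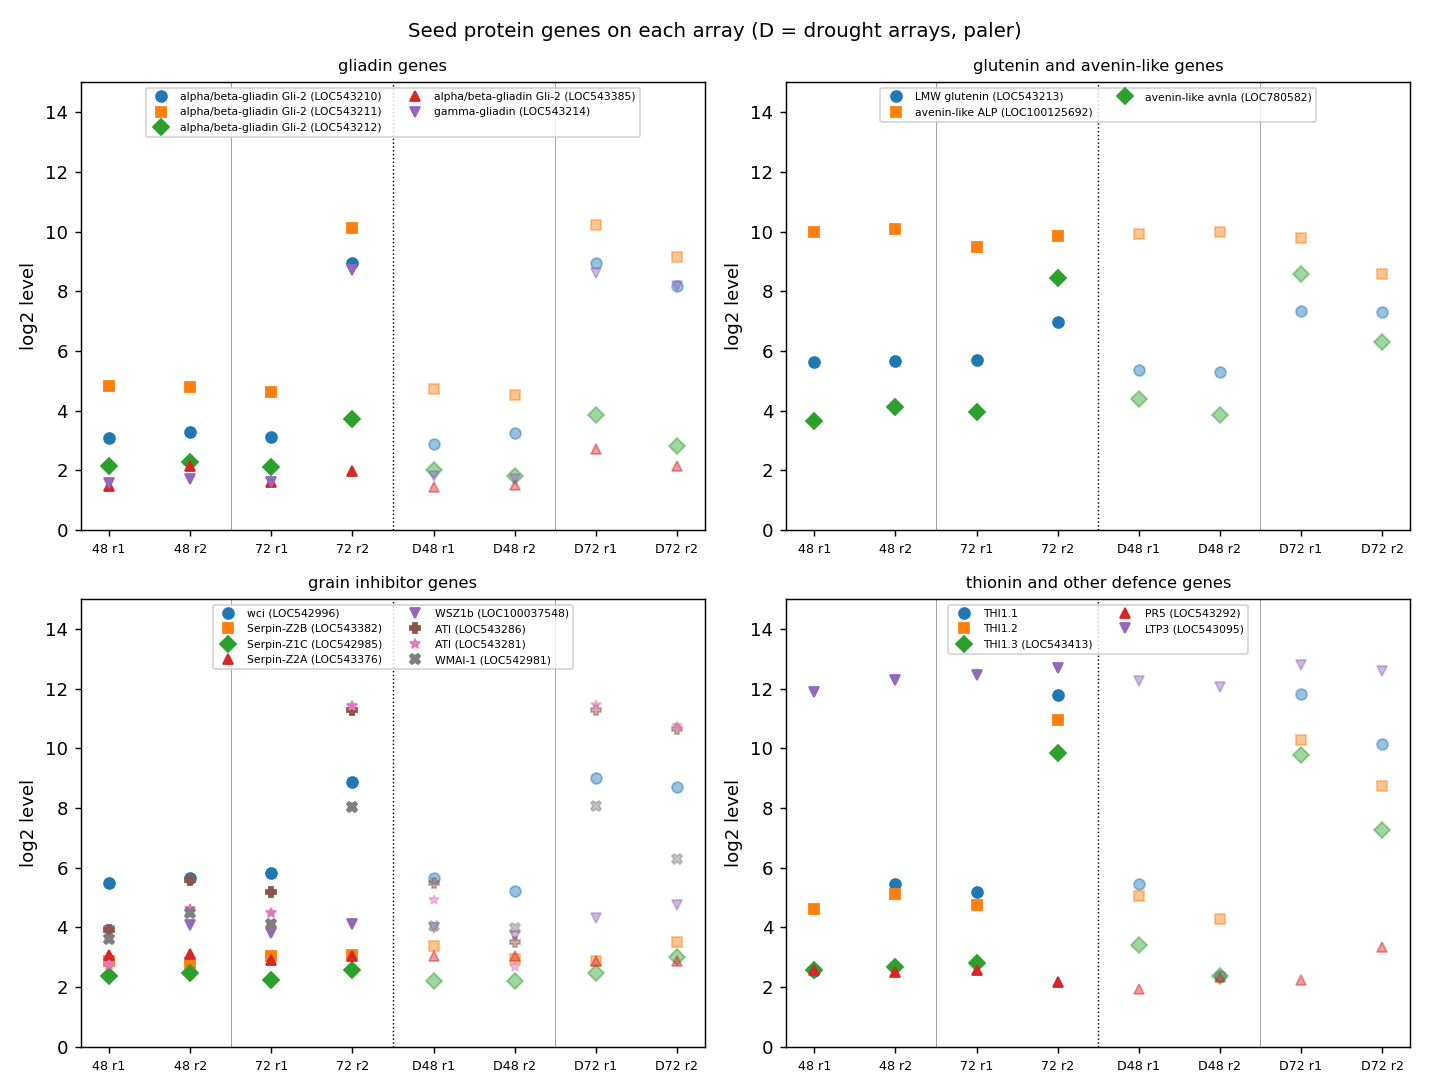
Log2 level of the genes of the 4 seed protein lists on each 48 and 72 HAF array, 1 point per array and gene (r1 and r2 are replicates, D and paler points are drought); levels compare within a gene only. Watered replicate 2 of 72 HAF stands above the other watered arrays for 13 of the 21 genes, while watered replicate 1 lies with the 48 HAF arrays.

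Of the 2 starch genes 1 was higher on replicate 2 only and 1 stayed level. Waxy (LOC543395), the granule-bound synthase that makes amylose, was at 10.68 and 10.82 at 48 HAF and at 10.70 and 10.68 at 72 HAF. AGP-S (LOC543299), the small subunit of ADP-glucose pyrophosphorylase, which makes the sugar donor of starch, had 10.10, 10.19, 9.58 and 11.34, below the 48 HAF range on one array and 2.22-fold above it on the other. As markers of starchy endosperm, 4 of 5 gliadin genes and AGP-S were at least 2-fold higher on replicate 2, while waxy lay at its 48 HAF level on both 72 HAF arrays. Of the fructan-degrading exohydrolases, 6-FEH (LOC780575) had 9.62 and 8.45 before and 9.10 and 7.26 after, which put replicate 2 2.27-fold below the lower 48 HAF array. Its other 2 probe sets were in another class. 1-FEH (LOC543441) had 8.78, 8.23, 7.93 and 8.50, with the groups overlapping. IVR1 (LOC543415), annotated as an invertase, had 2.50, 2.72, 3.06 and 2.43. The median difference of these 3 sugar genes was -0.29, and it was -0.01 without replicate 1 of 48 HAF, -0.57 without replicate 2 of 48 HAF and 0.07 without replicate 2 of 72 HAF.

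Several other genes that were higher on replicate 2 only carry no readable name in the annotation. LOC100125699 had 2.01 and 2.17 at 48 HAF and 2.17 and 9.31 at 72 HAF, 141-fold on replicate 2. LOC543308 had 1.74, 1.67, 1.42 and 7.78, and LOC543098 had 2.0, 1.93, 2.15 and 6.87. For all 3 of them replicate 1 stayed within 0.25 log2 units of the 48 HAF range. LOC543094, annotated as HGGT, the enzyme that opens the tocotrienol branch of vitamin E synthesis, had 4.63, 5.84, 4.61 and 6.87. Of the 95 probe sets at least 16-fold higher on replicate 2, 22 have a gene name and stand for 14 genes, 9 of them in the seed protein lists. The largest shift of all belonged to a probe set without a gene name, at 2.30 and 2.47 before and 3.21 and 12.18 after. The 7 genes lower on replicate 2 only moved less, 2.01- to 2.49-fold. LOC543150, with 8.46, 6.05, 6.54 and 4.76, shows how far the 48 HAF arrays were apart in some of them.

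Replicate 1 had its own set of genes, with smaller shifts. LOC100037562 had 2.30 and 2.17 at 48 HAF, 4.73 on replicate 1 of 72 HAF and 1.95 on replicate 2, a 5.41-fold gap over the 48 HAF range. LOC542866 had 3.35, 3.03, 4.94 and 3.50. LOC543255 had 9.04, 8.63, 10.51 and 8.66. In 12 of the 15 genes higher on replicate 1 only, replicate 2 lay within 0.5 log2 units of the 48 HAF range. The 2 genes that were lower on replicate 1 only, LOC542957 (4.62, 4.65, 3.31 and 4.18) and LOC542980 (5.48, 5.93, 4.45 and 5.78), have no readable name.

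Among these 15, 1 gene has a known role in hormone synthesis. GA20ox1d (LOC543325) encodes a gibberellin 20-oxidase, which makes the precursors of active gibberellins. Its levels were 4.76 and 4.92 at 48 HAF and 5.93 and 4.96 at 72 HAF, 2.02-fold on replicate 1 and within 0.05 log2 units of the range on replicate 2. Its other probe set was 1.84-fold higher on replicate 1. GA20ox1-A (LOC543327) had 3.73, 3.94, 4.85 and 4.36, both 72 HAF arrays above both 48 HAF arrays, with a difference of 0.77 ± 0.34, an unadjusted p of 0.0511 and an adjusted p of 1 by limma. GA20ox1b (LOC543326) had 2.78, 2.57, 3.02 and 2.67. The median difference of the 3 genes was 0.61, from 1.01 on replicate 1 and 0.12 on replicate 2.

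Opposite movement on the 2 arrays was seen in 2 named genes. LOC542887 had 8.01 and 8.12 at 48 HAF, 6.85 on replicate 1 and 9.39 on replicate 2. LOC780587 had 5.52, 5.51, 4.49 and 8.30. The second of these rests on 1 probe set, 1.02 log2 units below the range on replicate 1, and its other probe set was higher on replicate 2 only (1.88, 1.71, 1.63 and 4.38).

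**Figure D3:**
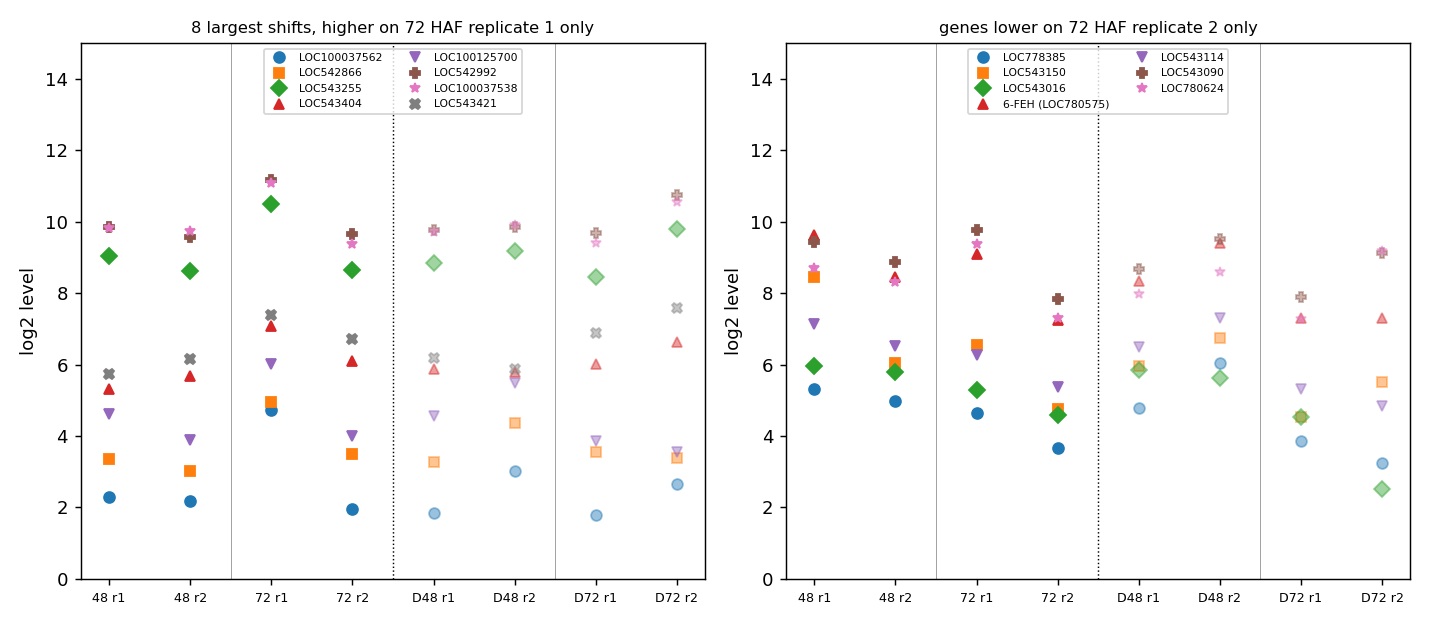
Log2 level of genes on each 48 and 72 HAF array (r1 and r2 are replicates, D and paler points are drought), for the 8 largest shifts among genes higher on watered 72 HAF replicate 1 only (left) and the 7 genes lower on watered replicate 2 only (right). Levels compare within a gene, not between genes; LOC100037562 stands at 4.73 on watered replicate 1 and at 1.95 on replicate 2.

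Relative to the 48 HAF mean, 184 of the 771 genes were higher and 243 lower on both 72 HAF arrays. Over all 61179 probe sets 16762 were higher and 18429 lower on both, shares of similar size. Moves of 2-fold on both were few. All 19 probe sets that moved 2-fold on both lack a gene name. Ta.5566.2.S1_a_at had 7.52 and 7.35 before and 9.13 and 9.0 after, and Ta.23066.2.S1_s_at had 3.74, 3.82, 5.28 and 5.37. The 2 groups do not overlap in either, and the 72 HAF arrays differ by no more than 0.13. Outside the comparison, the first stood at 7.49 and 9.11 on the 24 HAF arrays and at 7.58 and 7.63 on the 48 HAF drought arrays. The second stood at 4.26 and 3.49 and at 4.68 and 5.22 on the same arrays. The differences of these 2 probe sets were 1.63 ± 0.52 and 1.55 ± 0.38 (SE of the fit on all 10 arrays, n = 2 per group). Both had an adjusted p of 1 by limma. Among those lower on both, Ta.4328.1.S1_x_at had 5.68, 5.77, 4.14 and 3.52 and Ta.4328.1.S1_at, from the same transcript cluster, had 5.83, 5.70, 4.22 and 3.52. Ta.4328.1.S1_x_at stood at 5.74 and 3.09 on the 24 HAF arrays and at 5.93 and 3.34 on the 48 HAF drought arrays. At a lower limit of 1.5-fold, 140 probe sets were higher on both arrays (0.229%) and 117 lower (0.191%), and these included 7 and 4 named genes.

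Some named genes came close to 2-fold on both arrays. LOC543416 had 5.56 and 5.99 at 48 HAF and 7.04 and 6.90 at 72 HAF, 2.08- and 1.88-fold above the range, with an unadjusted p of 0.0326 and an adjusted p of 1 by limma. LOC100049054 had 8.73, 8.79, 9.80 and 9.59. LOC543193, annotated as PIMT, an enzyme that repairs damaged aspartate residues in proteins, had 3.65, 3.78, 4.65 and 4.44. On the lower side the zinc finger gene WZF1 (LOC543182) had 3.76, 3.30, 2.54 and 2.47. LOC732704 was above the range on both arrays, but unequally, at 3.79 and 3.98 before and 4.85 and 8.54 after. The other genes among the 5 with the smallest unadjusted p moved little: LOC778422 by 0.32 and LOC543440 by 0.58 log2 units, with unadjusted p of 0.0332 and 0.0342 and adjusted p of 1 by limma.

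Genes of cell growth lay within 2-fold of the 48 HAF range on both arrays, though some came close to it on replicate 1. All 6 tubulin genes, subunits of microtubules, had a higher mean at 72 HAF, by 0.04 to 0.44 log2 units, and none was 2-fold outside the range on either array. Tubb4 (LOC543260), the one with the largest difference, had 10.06 and 10.02 at 48 HAF and 10.87 and 10.09 at 72 HAF. The tubulin medians were 0.34 on replicate 1 and 0.05 on replicate 2. Of 5 histone genes, which package newly made DNA, none moved 2-fold. H2A-2 (LOC732712) had 8.27, 7.71, 9.01 and 7.42, H2A-3 (LOC732713) had 10.87, 10.63, 11.59 and 10.44, and wcH2B-6 (LOC543183) had 11.24, 11.51, 11.70 and 11.70. On replicate 1, H2A-2 was 1.67-fold, H2A-3 1.65-fold and Tubb4 1.75-fold above the 48 HAF range. The histone median was 0.22 on average, 0.36 on replicate 1 and -0.31 on replicate 2. The xyloglucan-modifying cell wall gene XTH had 8.55, 9.15, 9.68 and 8.45, above the range on one array and below it on the other.

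Photosynthesis genes, which mark the green layers of the pericarp, stayed within 2-fold of the 48 HAF range on both arrays. The large Rubisco subunit rbcl had 14.07, 14.05, 13.96 and 14.09. PRK (LOC543283), an enzyme of carbon fixation, had 9.58, 10.24, 9.41 and 10.56. The median difference of the 4 genes was 0.04, from -0.20 on replicate 1 and 0.31 on replicate 2. The photosystem II genes PsbO (LOC543291) and PsbP (LOC543290) differed by 0.23 and 0.02. PsbO had 10.46, 10.88, 10.83 and 10.97, and PsbP had 10.87, 11.25, 10.77 and 11.38. Of the 3 antioxidant genes, catalase CAT1 had 6.08, 7.08, 5.78 and 7.10, so that replicates of the same number lay together at both times. The antioxidant median was -0.76 on replicate 1 and 0.52 on replicate 2, and -0.14 on average. The 5 genes of translation, among them eIF4E (LOC543485) at 9.90, 9.91, 9.53 and 9.95, had a median of -0.21, with -0.39 on replicate 1 and 0.04 on replicate 2.

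Genes of desiccation and stress proteins did not move 2-fold in watered seeds. The 5 dehydrin and late embryogenesis genes, whose proteins protect drying tissue, lay between 2.36 and 5.55 on the 4 arrays, and their median difference was 0.19. Rab15 (LOC543293) had 5.30, 4.85, 5.55 and 4.98. The Em genes, markers of the maturing embryo, were at 4.40, 4.40, 4.38 and 4.32 for LOC543480 and at 3.02, 2.79, 3.27 and 3.19 for LOC543497. The small heat shock gene hsp16.9A (LOC543277) had 2.64, 3.47, 3.98 and 3.85, both later arrays above both earlier ones, with a difference of 0.86 ± 0.37, an unadjusted p of 0.0436 and an adjusted p of 1 by limma. The chaperone gene FKBP70 (LOC543314) had 10.56, 10.51, 10.28 and 10.63. Profilin (LOC543315), an actin-binding protein abundant in pollen and also found elsewhere, was level at 12.38, 12.42, 12.60 and 12.40.

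**Figure D4:**
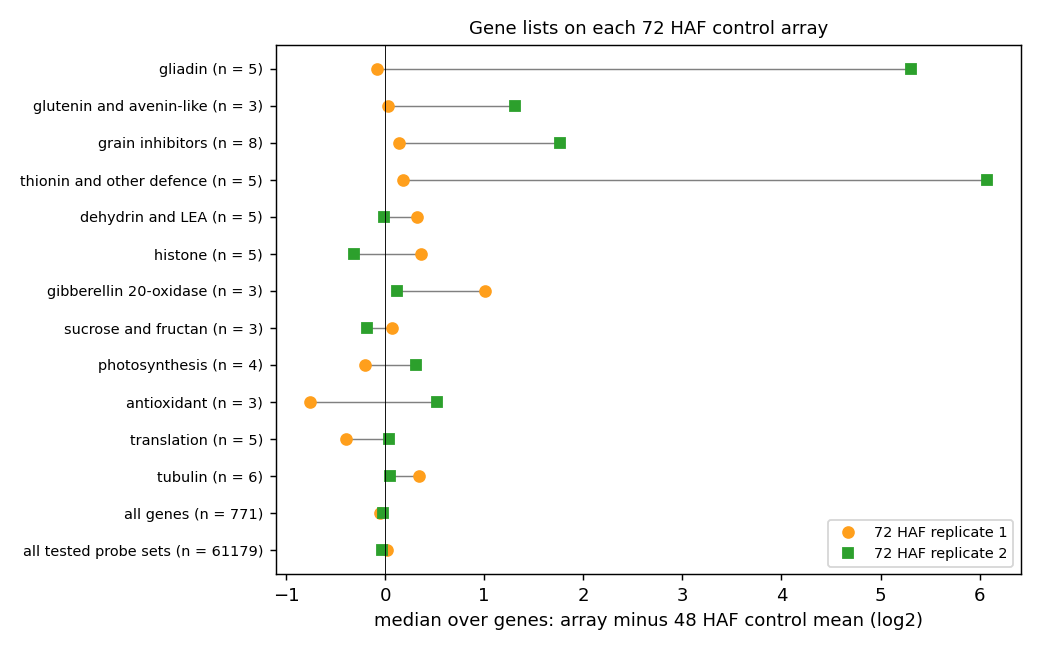
Median over each gene list of the distance of replicate 1 and of replicate 2 of the watered 72 HAF group from the 48 HAF mean, in log2 units. The thionin and gliadin lists lie at 6.07 and 5.31 on replicate 2 and at 0.18 and -0.08 on replicate 1, and most other lists lie within 1 unit of 0 on both.

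Droughted seeds of the same hours offer 4 arrays that the watered classes did not use. Drought replicate 1 of 72 HAF was, however, nearly the same as watered replicate 2 (r = 0.996, 63 probe sets 2-fold apart). At 48 HAF, too, drought replicate 1 lay close to watered replicate 2 (r = 0.993). A high share on drought replicate 1 for the classes of watered replicate 2 is therefore not separate evidence. Against the 48 HAF drought range, 1140 probe sets were 2-fold higher on drought replicate 1 (1.86%) and 3748 on drought replicate 2 (6.13%), and 270 (0.441%) and 6479 (10.6%) were lower. Of the 760 probe sets higher on watered replicate 2 only, 634 (83.4%) were also higher on drought replicate 1, 423 (55.7%) on drought replicate 2 and 408 (53.7%) on both, where 1.09% of all probe sets were higher on both. The shares for the 441 probe sets higher on watered replicate 1 only were 9 (2.04%) on drought replicate 1 and 120 (27.2%) on drought replicate 2. Of the 246 lower on watered replicate 1 only, 4 (1.63%) were also lower on drought replicate 1 and 118 (48.0%) on drought replicate 2. Of the 208 lower on watered replicate 2 only, 89 (42.8%) were lower on both drought arrays, where 0.284% of all were. Among the 13 probe sets higher on both watered arrays, 7 (53.8%) were also higher on both drought arrays, and among the 6 lower on both, 1 was lower on drought replicate 1 and 0 on drought replicate 2.

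The seed protein genes repeated this. All 13 that were higher on watered replicate 2 only were at least 2-fold higher on drought replicate 1, and 12 on drought replicate 2. Their median level was 4.73 and 3.50 on the 48 HAF drought arrays and 9.02 and 8.18 on the 72 HAF drought arrays. γ-gliadin LOC543214, for example, had 8.62 and 8.17 at 72 HAF under drought, so that of the 4 arrays of 72 HAF only watered replicate 1 lay at the 48 HAF level. Between watered replicate 2 and drought replicate 1 the 13 genes differed by 0.09 log2 units at the median and by 0.67 at most. Replicate 2 of 24 HAF had these transcripts too, at a median level of 7.68 against 4.14 on replicate 1, so the level of these genes on an array did not follow the labelled hour. What the closeness of these arrays contributes to the classes was not tested. For the difference between the drought and the watered change from 48 to 72 HAF, 0 of 61179 probe sets passed limma's test (0%), with 227 at an unadjusted p below 0.05. It was 0 without any single array, with 74 unadjusted without watered replicate 1 of 72 HAF, 609 without watered replicate 2, 1867 without drought replicate 1 of 72 HAF and 1164 without replicate 2 of 24 HAF.

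**Figure D5:**
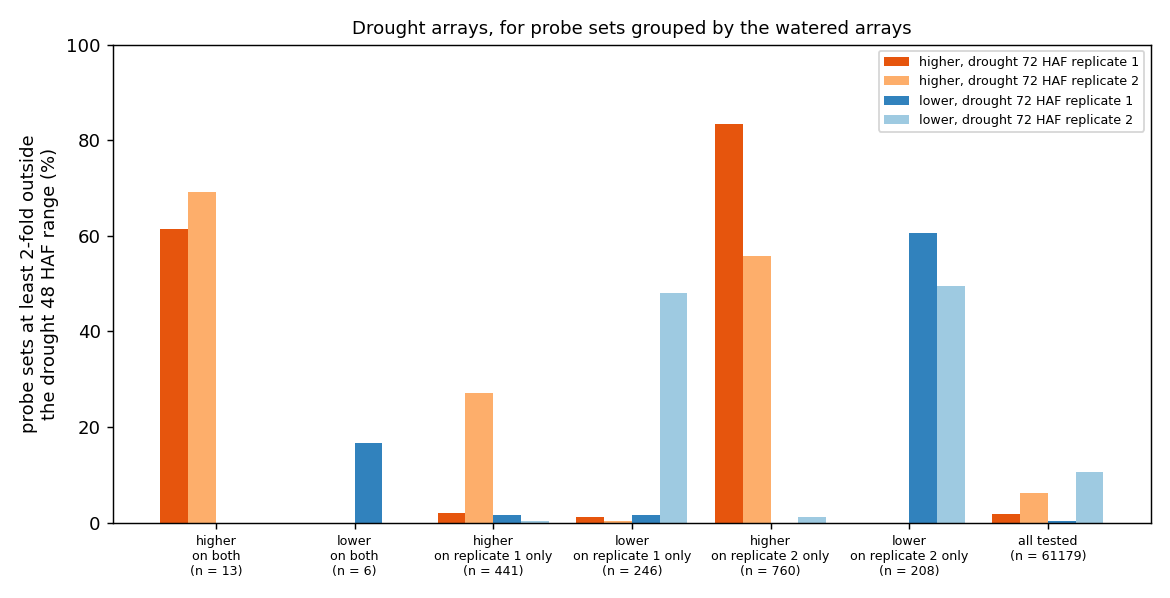
Bars give the share of probe sets at least 2-fold above (orange) or below (blue) the 48 HAF drought range on each 72 HAF drought array, in %, for the classes set by the watered arrays and for all tested probe sets. Probe sets higher on watered replicate 2 only reach 83.4% on drought replicate 1 and 55.7% on drought replicate 2, and those lower on watered replicate 1 only reach 48.0% on drought replicate 2.

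The genes higher on watered replicate 1 only were compared with drought in the same way. Of the 15, 4 were 2-fold higher on drought replicate 2 and 0 on drought replicate 1, where 6.13% and 1.86% of all probe sets were. GA20ox1d had 6.17 on that array and 4.90 on drought replicate 1. The watered difference for GA20ox1d was 0.61 and the drought difference 0.56. Watered replicate 2 and drought replicate 1 of 72 HAF, which lay close together over all probe sets (r = 0.996), carry different replicate numbers in their labels. Watered replicate 1 and drought replicate 2 of 72 HAF were less close. Drought replicate 2 had watered replicate 1 as its closest array (r = 0.959), ahead of its own partner (r = 0.951). The reverse did not hold for watered replicate 1. It was nearer to drought replicate 1 (r = 0.967, 4363 probe sets 2-fold apart) than to drought replicate 2 (r = 0.959, 6532).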

How the data were processed

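Total RNA was hybridized to Affymetrix wheat arrays, 10 in all. The deposited values are log2 levels per probe set, which the authors made with RMA in the affy package, per the submitters' processing notes. Their versions are not given in the sources read for this account. RMA gives no detection call, so signal over background was not measured. RMA pulls the arrays to a common distribution, so shifts of total RNA are not visible. All 10 columns were mapped by title, and 0 other columns of per-sample values were present. Limma 3.58.1 in R 4.3.3 was fitted to all 61179 probe sets and 5 groups (5 residual and 3.59 prior degrees of freedom, variance trend, no block) with Benjamini-Hochberg adjustment. The fit was also run on simulated data with independent noise, equal for all probe sets of a group. Such noise lacks the deviations that whole arrays share here, so that run does not show what the fit can detect in this series. Classes, lists and figures used Python 3.11.15 with pandas 2.3.3. A shift is the distance from the nearer end of the 48 HAF range.

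Probe sets were named from GEO's platform annotation, updated by Entrez gene ID to RefSeq names of assembly IWGSC CS RefSeq v2.1: 1273 probe sets had 1 symbol, 0 several and 59906 none, and 770 of 771 genes matched. Many symbols are placeholders, so 102 genes have a readable name. Sequences were not analysed here. Named were up to 10 genes per class and direction by shift, opposite genes, the 5 smallest p, up to 6 members of each list, and 2 unnamed probe sets per direction among those that moved on both arrays; LOC543094, LOC543098, LOC543182, LOC543193 and LOC100049054 were chosen after their values were seen. Members and lists were chosen with earlier results of these data known. The list for the cell cycle held tubulins only, that for the cell wall XTH and that for pollen profilin, while no readable name matched the lists for endosperm transfer cells, nucellus or transcription factors. Pairing by replicate number was checked on deviations from the group means: the correlation was 0.188 between 48 and 72 HAF and ran from -0.519 to 0.586 over all pairs of groups, so the numbers were not taken to pair the samples.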

Additional observations from a re-analysis of the deposited data

Results flagged for a closer look

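The β-tubulin gene tubb3 (LOC543473), a subunit of microtubules, lay higher on both watered 72 HAF arrays than on both 48 HAF arrays, at 11.59 and 11.57 before and 11.68 and 11.75 after, and lower on both under drought, at 11.71 and 11.74 before and 11.65 and 11.53 after. The drought change minus the watered change was -0.27 log2 units with a 95% interval from -0.89 to 0.35 and an adjusted p of 1 by limma. It is listed because both watered arrays moved one way and both drought arrays the other; a difference of this size did not pass the test.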

How the results depend on the processing

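No probe set was called for 48 against 72 HAF in any setting tried (all 10 or 4 arrays, 24 HAF arrays left out, no variance trend, another centring, quantile normalization, mean above 4, replicate block, each of the 10 arrays left out) but one: without replicate 2 of control 48 HAF 2 unnamed probe sets passed, Ta.5128.1.A1_at (-5.63, adjusted p 0.0176 by limma) and Ta.5703.1.S1_a_at (-4.53, adjusted p 0.0388 by limma), so the count ran from 0 to 2 with single arrays left out. On the array left out they stood at 2.30 and 2.11, against 7.35 and 6.27 on replicate 1 of 48 HAF and 1.56 to 1.91 on the 72 HAF arrays. With the replicate block 0 were called and 166 had an unadjusted p below 0.05. With the drought arrays' replicate numbers crossed in the block, an alternative chosen after seeing the data as was leaving out the drought arrays or replicate 1 of 24 HAF here and the 24 HAF arrays for the drought difference, 0 were called for either comparison. With 4 arrays 0 were called and 1717 were below it. The drought difference had 0 calls in every setting run. At 1.5-fold the classes counted 140 higher and 117 lower on both arrays, 2319 higher and 2572 lower on replicate 1 only, 1637 and 819 on replicate 2 only, and 159 and 76 in opposite directions. At 4-fold they counted 0 and 0, 14 and 4, 286 and 13, and 0 and 0 in the same order. With shifts taken from the 48 HAF mean there were 41 and 111 on both, 693 and 731 on replicate 1 only, 466 lower on replicate 2 only, and 64 and 35 in opposite directions. Leaving out a 48 HAF array gave 55 to 211 and 59 to 435 on both, 784 to 982 and 629 to 1362 on replicate 1 only, 933 to 1198 higher and 243 to 731 lower on replicate 2 only, and 36 to 59 and 16 to 125 in opposite directions. Of 84 list medians under alternatives, 79 moved by less than the spread between the 72 HAF arrays, which is wide, and 11 changed sign. When 1 of these arrays is dropped, the change of a list stays mostly within that spread by construction. The count of 79 therefore says little about stability. Leaving out 1 of the 72 HAF arrays turned the sign of 7 of 12 lists, the gliadin list among them (-0.08 to 5.31). The glutenin list was at 1.78 with the mean over probe sets, the histone list ran from -0.31 to 0.36 and the sugar list from -0.57 to 0.07 with single arrays left out. Of 874 gene values under alternatives 819 kept their direction and none passed the test. These 874 values include fits that leave each difference unchanged by design: no variance trend, 4 arrays, replicate block and mean above 4. Such fits could not reverse a direction, so the count of 819 overstates stability. Of the 89 named genes and probe sets, 43 were reversed in at least 1 setting. PsbP was at -0.02 with arrays centred on one median. The other 54 reversals came from leaving out 1 array, and the differences ranged as follows (the cause was not tested): CAT1 (-0.80 to 0.52), COR410 (-0.19 to 0.31), LOC100037538 (-0.40 to 1.29), LOC100037562 (-0.28 to 2.50), LOC100049018 (-0.10 to 0.03), LOC100125700 (-0.26 to 1.75), LOC542846 (-0.13 to 1.2), LOC542887 (-1.21 to 1.32), LOC542980 (-1.26 to 0.08), LOC542992 (-0.04 to 1.45), LOC543090 (-1.31 to 0.63), LOC543108 (-0.23 to 0.53), LOC543184 (-0.22 to 0.36), LOC543210 (-0.08 to 5.75), LOC543211 (-0.21 to 5.31), LOC543212 (-0.07 to 1.52), LOC543214 (-0.06 to 7.08), LOC543255 (-0.18 to 1.67), LOC543261 (-0.22 to 0.56), LOC543269 (-0.66 to 0.23), LOC543283 (-0.50 to 0.65), LOC543290 (-0.29 to 0.32), LOC543292 (-0.38 to 0.02), LOC543293 (-0.09 to 0.47), LOC543299 (-0.56 to 1.2), LOC543308 (-0.29 to 6.07), LOC543314 (-0.25 to 0.10), LOC543315 (-0.00 to 0.20), LOC543326 (-0.01 to 0.34), LOC543385 (-0.35 to 0.30), LOC543395 (-0.14 to 0.01), LOC543415 (-0.18 to 0.45), LOC543417 (-0.23 to 0.37), LOC543485 (-0.38 to 0.04), LOC732712 (-0.57 to 1.02), LOC732713 (-0.31 to 0.84), LOC732714 (-0.33 to 0.33), LOC778381 (-0.37 to 1.15), LOC780575 (-1.77 to 0.07), LOC780587 (-1.02 to 2.79), LOC780624 (-1.21 to 0.86), THI1.2 (-0.11 to 6.07), XTH (-0.40 to 0.83).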
